A study of Mus musculus with 6 samples.

Results

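The genes described here are 9 transcription factor genes known for their part in the trophectoderm, namely Tead4, Cdx2, Eomes, Gata2, Gata3, Tfap2c, Tfap2a, Hand1 and Elf3. They were chosen by symbol, and the Ensembl identifier of each was found among the 55401 gene rows of the deposited count table. The libraries hold poly(A) RNA of mouse embryonic stem (ES) cells, which are cultured pluripotent cells of the early embryo. In 3 libraries the cells carry the label 3XHA-Taf13 expressing and had no treatment. In the other 3 they carry the label KO and had doxycycline. The design text gives 7 days of culture before RNA extraction and a separate Petri dish for each library. TAF13 is a subunit of TFIID, the complex that binds core promoters and helps load RNA polymerase II. The label and the drug always go together, so a difference between the groups cannot be told apart from an effect of doxycycline. How the tagged Taf13 is driven, the make of the KO allele, and whether the cells are 1 clone are not stated in the sources used.

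The trophectoderm is the outer epithelium of the blastocyst and gives rise to the trophoblast of the placenta. In outer cells of the embryo the HIPPO kinases are quiet, YAP1 and its relative TAZ enter the nucleus, and with TEAD4 they switch on Cdx2 and Gata3. CDX2 and EOMES maintain trophoblast stem cells, GATA2, GATA3 and the AP-2 factors act beside them, and HAND1 drives the differentiation of giant cells. ES cells normally hold most of these genes low, and OCT4, encoded by Pou5f1, and CDX2 repress each other.

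The total count ran from 31219328 to 50328010 per library. The targeted gene is no check of the labels: Taf13 was counted 244, 445 and 447 times in the expressing libraries and 422, 634 and 699 times in those labelled KO, with a log2 fold change of 0.40 (SE 0.147, adjusted p = 0.0578, edgeR), so all directions below rest on the labels. Taf13 passed as higher under 9 of 14 alternative settings, among them DESeq2 (adjusted p = 0.0216) and edgeR without expressing replicate 1 (0.0126) or 3 (0.0151), and its adjusted p ranged from 0.00257 to 0.166 over the 14. Expressing replicate 1 stood apart from the other expressing libraries. The deviation of its genes from the group mean followed their GC content (r = 0.553 over genes, which are no independent replicates), and 7 of the 9 regulators had their highest expressing level in it. Of these 7, Cdx2, Gata2, Tead4, Hand1 and Elf3 have 56.5% to 58.2% GC, against a median of 49.5% over tested genes. The share of all genes that were highest in this library was not computed. Of 10 ES cell markers, 10 were detected and tested, and their summed level was 3743 to 3886 CPM (counts scaled to a common library size) in the expressing libraries and 2433 to 2453 CPM in those labelled KO. The labelled cell type was thus seen in both groups, with the markers lower in the libraries labelled KO.

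Of the 9 regulators, 2 rose (Gata3 and Tead4) and 5 fell (Tfap2c, Cdx2, Hand1, Elf3 and Eomes) in the libraries labelled KO, by edgeR's quasi-likelihood test at a Benjamini-Hochberg adjusted p under 0.05. Among all 17778 genes tested the same rule called 40.0% (19.2% higher and 20.8% lower), and with 9 genes the share among the regulators is described and not tested. Gata2 and Tfap2a did not pass. Of the 9, 3 (Cdx2, Gata3 and Tfap2c) were called with a log2 fold change of at least 1 in size, against 8.86% of all tested genes. Cdx2 (-1.05) lay near this cut. It was under 1 in size without expressing replicate 1 (-0.92), with library totals (-0.96) and with the GC trend removed (-0.97). The median log2 fold change of the 9 was -0.21, against -0.01 over all tested genes. Without expressing replicate 1, 3 rose and 5 fell, the added gene being Gata2. Under 9 of the 14 alternative settings the number that fell was 4, because Eomes lost its call. All 9 passed the filter on low counts, with at least 28 counts in each library. For all 9 the levels of the groups did not overlap, as was the case for 53.5% of all tested genes. In bulk RNA a lower level can come from fewer cells with the transcript or from less of it in each cell, and these cannot be told apart here.

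**Figure D1:**
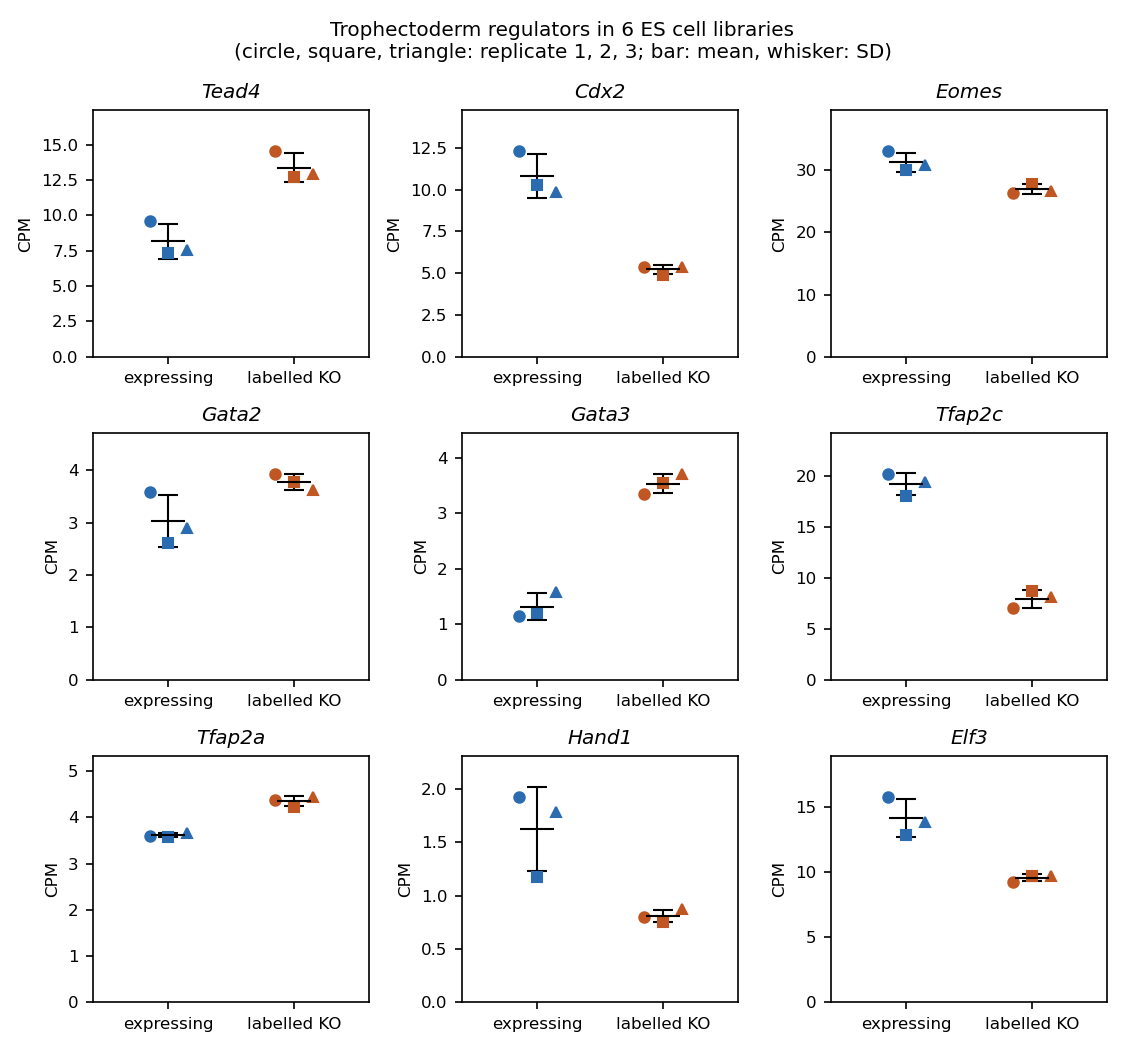
Level of each regulator in CPM (y axis, from 0) in the 3 expressing libraries and the 3 labelled KO. Points are libraries (circle, square and triangle for replicates 1, 2 and 3), bars are means and whiskers are SD (n = 3). Gata3 and Tead4 lie higher in the libraries labelled KO, and Tfap2c, Cdx2, Hand1 and Elf3 lie lower.

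Tead4 (ENSMUSG00000030353; chromosome 6, 128224288 to 128300823, minus strand, mm10) encodes the TEA-domain factor at the head of the pathway. Its level was 9.57, 7.36 and 7.52 CPM in the expressing libraries and 14.5, 12.7 and 12.9 CPM in those labelled KO. Every library labelled KO was above every expressing library. Tead4 rose with a log2 fold change of 0.72 (SE 0.12, adjusted p = 0.00136, edgeR), or 1.64-fold. The TEAD paralogues, which bind the same kind of site, did not move as 1 group. Tead1, the most abundant of them per kilobase in 5 of the 6 libraries (Tead2 was above it in expressing replicate 1), rose from 359.6 ± 36.5 to 626.4 ± 12.9 CPM (n = 3, SD; log2 change 0.80), and Tead3 rose by 0.78. Tead2 fell, with a log2 fold change of -0.47, from 110.2 ± 11.4 to 79.7 ± 2.47 CPM (SD, n = 3). Per kilobase of exon, Tead4 made up 4.10% ± 0.569 (SD, n = 3) of the summed TEAD level in the expressing libraries and 5.14% ± 0.425 (SD, n = 3) in those labelled KO. Tead2 made up 41.7% ± 3.87 and 23.0% ± 0.581 (SD, n = 3). Tead4 was the least abundant TEAD gene per kilobase in all 6 libraries.

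The genes that feed into TEAD4, the HIPPO kinases, their adaptors and the YAP1 coactivators, numbered 7 higher and 3 lower of 21 tested, with a median log2 fold change of 0.05. Of these 21, 47.6% were called, near the 40.0% of all tested genes. Wwtr1, which encodes the coactivator TAZ, rose by 0.59 on the log2 scale (SE 0.0868, adjusted p = 6.63e-04, edgeR). It and Yap1, the pair of coactivators, were named outside the naming rule, with their values known. Yap1 did not pass, at 263.6 ± 24.8 and 252.0 ± 5.76 CPM (n = 3, SD; log2 change -0.07). The increases with the smallest p were Amotl2, an angiomotin that binds YAP1 (log2 fold change 0.73), Lats2, a kinase that inhibits YAP1 (1.58), and Vgll3, a TEAD cofactor (1.24). Lats2 went from 6.67 ± 1.56 to 20.01 ± 0.557 CPM (SD, n = 3). Its exons are shared with a second annotated gene on its own strand, which makes its value uncertain. Nf2, an upstream activator of the kinases (-0.35), Wwc1 (-0.36) and the kinase gene Stk4 (-0.22) fell. Stk4 did not pass without KO replicate 2 (edgeR adjusted p = 0.0529) or with library totals (0.0622). Leaving out expressing replicate 1 gave 9 higher and 5 lower, and Yap1 was then among those lower (adjusted p = 0.00806, edgeR). Yap1 was also called lower with the GC trend removed, without the replicate block (0.022) and with it (0.0224).

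Cdx2 (ENSMUSG00000029646; chromosome 5, 147300805 to 147307270, minus strand) encodes the caudal homeobox factor that keeps the trophectoderm apart from the inner cell mass. Its level was 12.3, 10.3 and 9.85 CPM in the expressing libraries and 5.38, 4.90 and 5.38 CPM in those labelled KO. The libraries labelled KO lay close together, below the lowest expressing library. Cdx2 fell with a log2 fold change of -1.05 (SE 0.114, 95% interval -1.30 to -0.79, adjusted p = 1.19e-04, edgeR), which is 2.07-fold lower. Its paralogue Cdx4, a posterior patterning gene, went the other way. Cdx4 was counted 15, 46 and 35 times in the expressing libraries and 152, 225 and 254 times in those labelled KO, and rose from 0.827 ± 0.303 to 4.75 ± 0.348 CPM (n = 3, SD; log2 change 2.49, SE 0.216, edgeR adjusted p = 3.51e-05). Cdx1 did not pass (log2 fold change -0.12, 95% interval -0.53 to 0.30). The summed level of the CDX genes per kilobase of exon was 5.95 to 7.53 CPM in the expressing libraries and 5.93 to 6.34 CPM in those labelled KO, and these ranges overlap. Within that sum the share of Cdx2 went from 71.3% ± 2.496 to 37.8% ± 2.28 and that of Cdx4 from 6.48% ± 2.80 to 39.6% ± 2.195 (SD, n = 3). The groups did not overlap for either share (exact permutation p = 0.1, two-sided, the smallest that 3 against 3 libraries allow).

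The regulators that fell and rose by the largest folds among those with a promoter sequence at hand were Cdx2 and Gata3, and their promoters are shown because TFIID acts at such sequences. Both are the 250 bases before the RefSeq start (GRCm38.p6), read in the direction of the gene. The Gata3 window lies inside the gene as annotated, which extends upstream to base 9890034. The end of the Cdx2 window next to the start also lies inside its gene as annotated, which extends upstream to base 147307270. Which start these cells use was not tested. Capitals mark every match, on either strand, to the 7 motifs searched. The core promoter box named after its letters was searched as TATAAA. For the TEAD factors the letters searched were GGAATG. For the GATA factors they were AGATAA. The motif of the AP-2 factors was searched as GCCNNNGGC. That of the CDX factors was searched as TTTATG. The remaining motifs were the CCAAT box, searched by the letters of its name, and the GC box, searched as GGGCGG.
Cdx2, chr5:147307250-147307499, minus strand: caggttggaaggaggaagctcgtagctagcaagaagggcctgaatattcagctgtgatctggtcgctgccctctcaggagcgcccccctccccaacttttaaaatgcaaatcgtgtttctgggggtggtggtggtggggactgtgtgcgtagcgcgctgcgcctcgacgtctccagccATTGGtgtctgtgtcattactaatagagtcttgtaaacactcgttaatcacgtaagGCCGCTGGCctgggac
Gata3, chr2:9878601-9878850, minus strand: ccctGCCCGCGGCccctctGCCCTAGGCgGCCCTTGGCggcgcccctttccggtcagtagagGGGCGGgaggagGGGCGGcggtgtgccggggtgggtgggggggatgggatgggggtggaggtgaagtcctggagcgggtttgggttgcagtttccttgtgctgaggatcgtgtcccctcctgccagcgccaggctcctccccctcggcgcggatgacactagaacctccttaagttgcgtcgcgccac
The Cdx2 window held 1 AP-2 match, 16 to 8 bases before the RefSeq start and inside the gene as annotated. It also held 1 CCAAT box on the opposite strand, 72 to 68 bases before that start. The Gata3 window held 3 AP-2 matches and 2 GC boxes. Of all 32851 RefSeq mouse promoter windows of this length, 13.7% held an AP-2 match, 33.8% a CCAAT box and 32.7% a GC box. Windows were at hand for 6 of the 9 regulators (Cdx2, Elf3, Eomes, Gata2, Gata3 and Tfap2a). The exact letters TATAAA, which 12.4% of all windows held, were in none of theirs. Variants of that box were not searched, and the Eomes window holds the similar letters TATATAAG. The absence of TATAAA thus does not show that these promoters lack such a box. The Gata3 window is 70.0% G or C with 19 CpG sites and that of Cdx2 55.2% with 13, against a median of 52.4% and 6 over all windows. A match of letters is a description and shows no binding.

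Eomes (ENSMUSG00000032446; chromosome 9, 118478212 to 118486132, plus strand) encodes the T-box factor of trophoblast stem cells, and it also acts in the primitive streak. Its level was 33.0, 30.1 and 30.8 CPM in the expressing libraries and 26.4, 27.8 and 26.7 CPM in those labelled KO. The groups lay close together but did not overlap. Eomes fell with a log2 fold change of -0.21 (SE 0.0707, 95% interval -0.37 to -0.06, adjusted p = 0.0367, edgeR). Eomes did not pass once expressing replicate 3 was left out (edgeR adjusted p = 0.108), nor without KO replicate 1 (0.127), 2 (0.0799) or 3 (0.125), with DESeq2 (0.0548), with its size factors in edgeR (0.0524), with library totals (0.252), without a filter (0.0887) and with the replicate number as a block (0.0714). Among the other T-box genes, T (brachyury), which marks the streak, fell from 51.3 ± 5.24 to 22.5 ± 1.98 CPM (n = 3, SD; log2 change -1.19), and Tbx20 rose by 0.82. Tbx3 (-0.30) and Tbx6 (-1.07) fell. Tbx3 no longer passed when expressing replicate 3 (edgeR adjusted p = 0.1), KO replicate 1 (0.0838) or KO replicate 3 (0.0567) was left out, or with library totals (0.0788). Tbx6 no longer passed when expressing replicate 1 (0.0916), KO replicate 1 (0.0828) or KO replicate 3 (0.105) was left out, or with DESeq2 (0.0529).

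Gata3 (ENSMUSG00000015619; chromosome 2, 9857078 to 9890034, minus strand) encodes a zinc finger factor that TEAD4 activates in parallel with CDX2. It was counted 36, 53 and 58 times in the expressing libraries and 117, 160 and 191 times in those labelled KO, or 1.153, 1.201 and 1.59 CPM against 3.35, 3.55 and 3.70 CPM. Each library labelled KO was above the highest expressing library. Gata3 rose 2.69-fold (log2 fold change 1.43, SE 0.159, 95% interval 1.07 to 1.78, adjusted p = 1.33e-04, edgeR), the largest increase among the 9. Its paralogue Gata2 (ENSMUSG00000015053; chromosome 6, 88193891 to 88207032, plus strand), which acts with it in trophoblast, stood at 3.59, 2.61 and 2.90 CPM in the expressing libraries. In those labelled KO it stood at 3.92, 3.77 and 3.62 CPM. The groups did not overlap, but the highest expressing library, replicate 1, came close to the lowest labelled KO. The log2 fold change of Gata2 was 0.32 (SE 0.143, adjusted p = 0.1, edgeR). It passed without expressing replicate 1 (0.48, adjusted p = 0.00771, edgeR) and with the GC trend removed (0.40, adjusted p = 0.0113, edgeR).

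Per kilobase of exon, Gata3 made up 37.2% ± 6.23 of the summed Gata2 and Gata3 level in the expressing libraries and 56.0% ± 2.21 in those labelled KO (SD, n = 3), so that Gata3 passed Gata2. The remaining GATA genes differ in where they act. Gata4 and Gata6, the primitive endoderm members, rose from 4.63 ± 0.787 to 17.4 ± 0.929 CPM (n = 3, SD; log2 change 1.91) and from 1.61 ± 0.0784 to 10.2 ± 0.902 CPM (n = 3, SD; 2.67). Gata1, the erythroid member, was counted 23, 19 and 17 times in the expressing libraries and 7, 1 and 3 times in those labelled KO. It fell with a fitted log2 fold change of -2.62 (SE 0.557, adjusted p = 0.00498, edgeR). Gata5 had at most 9 counts in a library and was not tested. The share of Gata3 in the whole family per kilobase was 13.1% ± 3.21 and 11.6% ± 0.695 (SD, n = 3), with overlapping groups, while the share of Gata2 went from 21.8% ± 0.599 to 9.12% ± 0.672 (SD, n = 3).

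Tfap2c (ENSMUSG00000028640; chromosome 2, 172549593 to 172558622, plus strand) encodes AP-2 gamma, which acts in trophoblast, in germ cells and in ES cells. Its level was 20.1, 18.0 and 19.4 CPM in the expressing libraries and 6.99, 8.67 and 8.09 CPM in those labelled KO. All expressing libraries were above 18 CPM and all libraries labelled KO below 9 CPM. Tfap2c fell 2.42-fold (log2 fold change -1.27, SE 0.101, 95% interval -1.499 to -1.04, adjusted p = 2.07e-05, edgeR), the largest decrease among the 9. Tfap2a (ENSMUSG00000021359; chromosome 13, 40715302 to 40738376, minus strand) encodes AP-2 alpha, known also from surface ectoderm and neural crest. It stood at 3.59, 3.58 and 3.67 CPM in the expressing libraries and at 4.38, 4.23 and 4.43 CPM in those labelled KO. The replicates lay close together and the groups did not overlap, with a log2 fold change of 0.27 (SE 0.108, adjusted p = 0.0737, edgeR). Tfap2a passed when libraries were scaled by their totals alone (0.36, adjusted p = 0.0292, edgeR), a scaling that moved the median of all genes to 0.08. Exons of Tfap2a are shared with 3 annotated antisense genes. One of these, Gm47061, had 9, 18 and 9 counts in the expressing libraries and 25, 23 and 32 in those labelled KO. The strand setting of the counting is not given in the sources used here, so the value of Tfap2a is uncertain to that extent. Eomes, Gata3, Elf3 and some other genes named here, such as Pou5f1, also share exon bases with an antisense gene and have the same limit.

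Among the remaining AP-2 genes, Tfap2b rose from 0.137 ± 0.0510 to 0.330 ± 0.0377 CPM (n = 3, SD; log2 change 1.29), on 4 to 18 counts in a library. Tfap2b did not pass once expressing replicate 2 (edgeR adjusted p = 0.109), KO replicate 2 (0.0795) or KO replicate 3 (0.0838) was left out, with DESeq2 (0.0839) and without a filter (0.0586). Tfap2e, at 2.27 ± 0.331 and 1.78 ± 0.147 CPM (SD, n = 3), did not pass (log2 fold change -0.35), and Tfap2d had at most 5 counts in a library. The summed AP-2 level per kilobase was 6.77 to 7.54 CPM in the expressing libraries and 3.82 to 4.16 CPM in those labelled KO. Within it the share of Tfap2c went from 73.3% ± 1.30 to 54.0% ± 3.70 and that of Tfap2a from 10.4% ± 0.577 to 22.3% ± 1.40 (SD, n = 3). The plot of family make-up shows both.

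**Figure D2:**
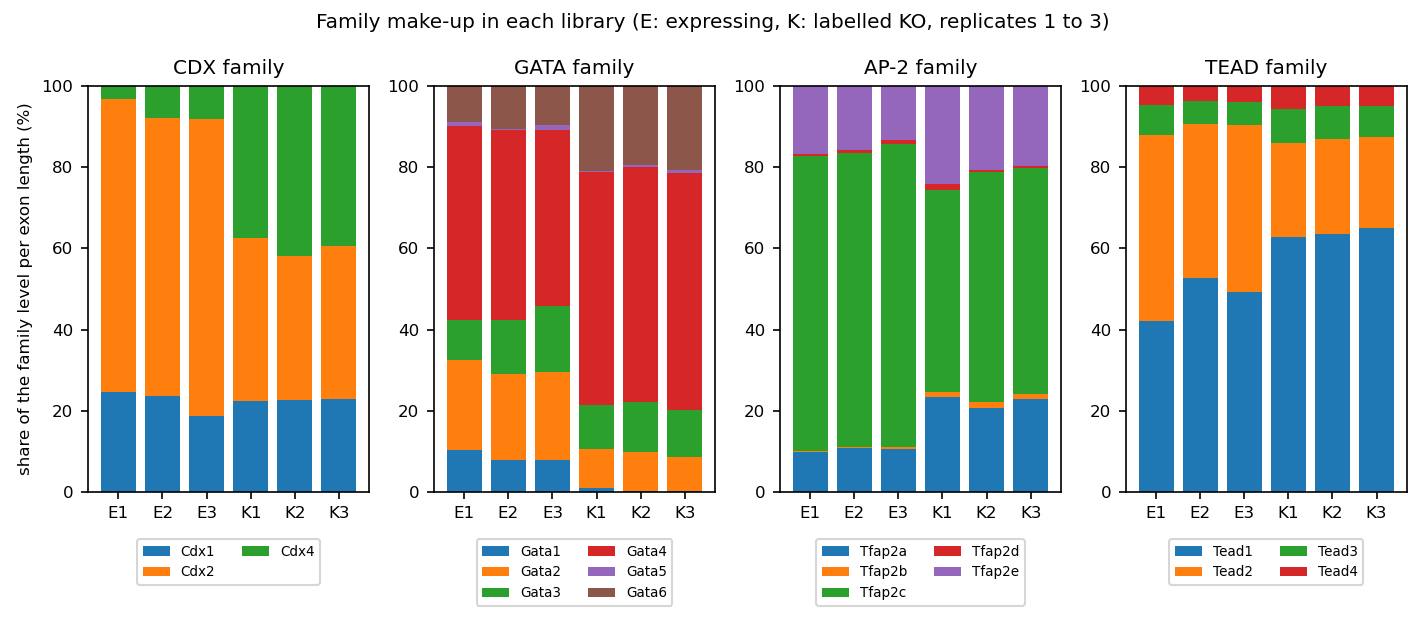
Share of each gene in the summed level of its family per kilobase of exon (y axis, percent) in each library, for the CDX, GATA, AP-2 and TEAD families. Bars E1 to E3 are the expressing libraries and K1 to K3 those labelled KO. The share of Cdx2 is lower and that of Cdx4 higher in all 3 libraries labelled KO, and the share of Tfap2c is lower there. A share moves with the other genes of its family as well as with its own level.

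Hand1 (ENSMUSG00000037335; chromosome 11, 57828705 to 57832818, minus strand) encodes the basic helix-loop-helix factor of giant cells and of extraembryonic mesoderm. It was the most weakly counted regulator in the libraries labelled KO, with 60, 52 and 65 counts in the expressing libraries and 28, 34 and 45 in those labelled KO. Its level was 1.92, 1.18 and 1.78 CPM against 0.802, 0.754 and 0.872 CPM, and expressing replicate 2 lay well under the other expressing libraries but above all labelled KO. Hand1 fell with a log2 fold change of -0.98 (SE 0.229, 95% interval -1.498 to -0.47, adjusted p = 0.00786, edgeR), the widest interval among the 9. Its paralogue Hand2 had 2, 4 and 2 counts in the expressing libraries and 5, 19 and 18 in those labelled KO, under the count filter. It passed as higher with no filter (log2 fold change 2.10, edgeR adjusted p = 0.00382) and, once the filter let it in, without expressing replicate 1 (0.00792), expressing replicate 2 (0.0275) or KO replicate 1 (0.00689), but not without expressing replicate 3 (0.0521).

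Elf3 (ENSMUSG00000003051; chromosome 1, 135253575 to 135258568, minus strand) encodes an ETS factor of epithelia. Its level was 15.8, 12.9 and 13.9 CPM in the expressing libraries and 9.28, 9.73 and 9.76 CPM in those labelled KO. The libraries labelled KO lay close together and under every expressing library. Elf3 fell with a log2 fold change of -0.56 (SE 0.0983, adjusted p = 0.00178, edgeR), or 1.47-fold. Elf5, the ETS factor that holds trophoblast stem cells in their fate together with CDX2 and EOMES, had at most 7 counts in a library and was not tested. The ETS genes Ehf and Spdef had at most 6. Of the widely expressed members, Elf4 rose from 8.58 ± 1.00 to 13.2 ± 0.617 CPM (n = 3, SD; log2 change 0.62) and Elf2 by 0.22 on the log2 scale, while Elf1 did not pass (0.15) except with library totals (edgeR adjusted p = 0.0405). Elf2 did not pass without KO replicate 1 (edgeR adjusted p = 0.0664) or KO replicate 3 (0.0844).

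**Figure D3:**
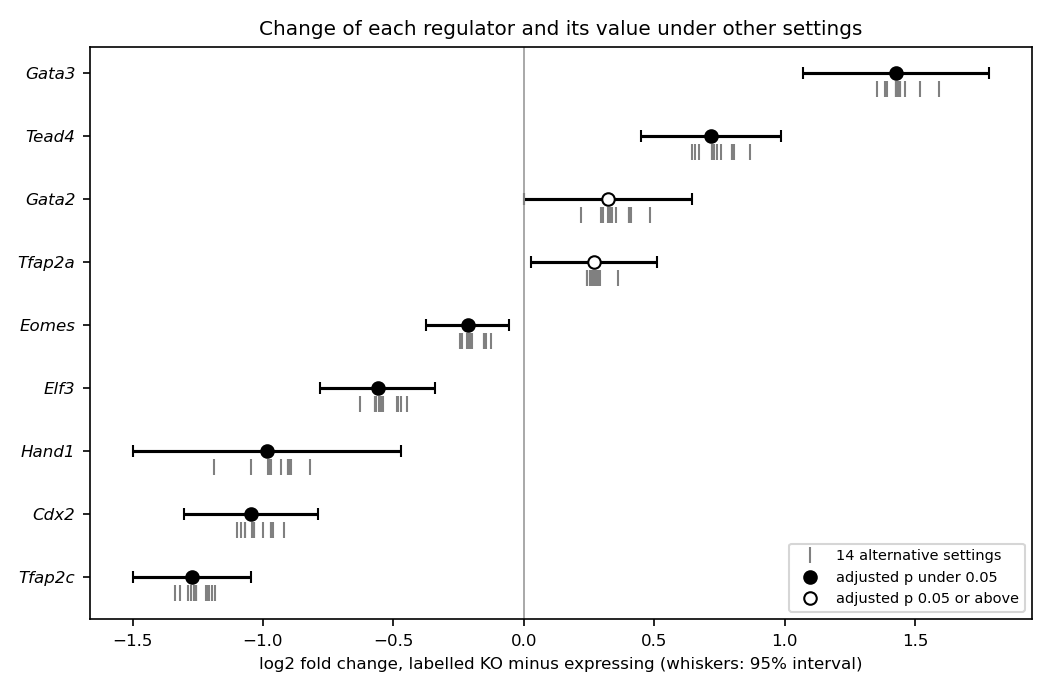
Log2 fold change of each regulator (x axis, libraries labelled KO minus expressing) with its 95% interval. Filled points passed the adjusted threshold and open points did not, and grey ticks are the values under 14 alternative settings. No regulator changed sign under any of them.

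The order of the regulators changed between the groups. Per kilobase of exon, the mean level in the expressing libraries was highest for Eomes (7.54 CPM), followed by Elf3 (6.39), Tfap2c (5.22), Cdx2 (4.78), Tead4 (2.27), Hand1 (0.814), Tfap2a (0.736), Gata2 (0.561) and Gata3 (0.330). The library ranges of Tfap2c and Cdx2 overlapped, as did those of Hand1 and Tfap2a. Within each expressing library Tfap2c was still above Cdx2, though barely in replicate 1 (5.475 against 5.438 CPM). Hand1 was under Tfap2a in expressing replicate 2, so the order of that pair was not the same in all libraries. In the libraries labelled KO the order by mean level per kilobase was Eomes (6.49 CPM), Elf3 (4.33), Tead4 (3.72), Cdx2 (2.31), Tfap2c (2.15), Gata3 (0.888), Tfap2a (0.887), Gata2 (0.699) and Hand1 (0.405). There the ranges of Cdx2 and Tfap2c overlapped, and so did those of Gata3 and Tfap2a. Tead4 thus passed Tfap2c and Cdx2, and Hand1 went from the sixth place to the last. Eomes and Elf3 stayed first and second. Summed over the 9 genes, the level per kilobase was 26.7 to 31.3 CPM in the expressing libraries and 21.7 to 22.0 CPM in those labelled KO.

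Genes around the regulators were counted in lists chosen by symbol. Of 23 genes listed here as repressors of trophectoderm genes in ES cells, 15 fell and 0 rose in edgeR. The list includes general pluripotency and chromatin genes, and whether each of them acts as such a repressor was not tested. Called were 65.2% of the list, against 40.0% of all tested genes (20.8% lower), a difference that was not tested. The number higher was 0 at an unadjusted p under 0.05 and 0 with DESeq2, but Suz12, a Polycomb subunit, was called higher without expressing replicate 1 (adjusted p = 0.0471, edgeR), with library totals, with no filter and after removal of the GC trend. The list's median log2 fold change was -0.36. Some of its genes, such as Nanog, Sox2 and Zfp42, also stand among the ES cell markers, so the fall of the lists is in part that of the same genes. Pou5f1, which encodes OCT4, fell from 827 ± 124.1 to 497.9 ± 10.00 CPM (n = 3, SD; log2 change -0.73, SE 0.0947, adjusted p = 3.22e-04, edgeR). Nanog dropped from 281.0 ± 21.8 to 118.6 ± 6.74 CPM (n = 3, SD; log2 change -1.24). Sox2 fell from 278.4 ± 65.5 to 189.4 ± 5.88 CPM (n = 3, SD; -0.56, adjusted p = 0.013, edgeR), and lost its call without expressing replicate 2 (0.0706), without KO replicate 2 (0.0542) and with the GC trend removed (0.106). The decreases with the smallest p were Zfp42 (-1.37), Sall1 (-1.21) and Nanog. Among the corepressors, named after their values were seen, Trim28 fell from 1859 ± 188.5 to 900.7 ± 16.4 CPM (n = 3, SD; -1.05), and Kdm1a (-0.38) and Setdb1 (-0.21) fell less. Setdb1 lost its call without KO replicate 1 (adjusted p = 0.0723, edgeR) and with library totals (0.118). Hdac2 (-0.17, adjusted p = 0.0494, edgeR) lost its call with DESeq2 (0.0766) and under other settings. Ezh2 (-0.07), Cbx3 (-0.07), Eed (-0.15) and Dnmt1 (-0.17) did not pass. Each of these was called lower under some alternative settings, as Ezh2 was with the GC trend removed (adjusted p = 0.0103, edgeR).

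Other trophoblast transcription factors numbered 5 higher and 6 lower of 23 tested, with a median log2 fold change of -0.06. The share called was 47.8%, near the 40.0% of all tested genes. Gata6, which also stands in the list of primitive endoderm markers, was among the 5 higher. Besides it, Msx2, a homeobox factor, rose by 1.31 on the log2 scale from 3.37 ± 0.328 to 8.34 ± 0.402 CPM (SD, n = 3). Ascl2, needed for the spongiotrophoblast, rose by 0.86. Esrrb (-0.98), Id2 (-0.81) and Klf5 (-0.62), which ES cells and trophoblast both use, fell. Gcm1, the syncytiotrophoblast factor, did not pass, at 1.06 ± 0.333 and 1.38 ± 0.128 CPM (SD, n = 3). It did without expressing replicate 1 (adjusted p = 0.0185, edgeR).

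Genes of the trophectoderm epithelium and of the pumping that fills the blastocyst cavity numbered 7 higher and 14 lower of 30 tested, with a median log2 fold change of -0.16. Of the 30, 70% were called, against 40.0% of all tested genes, a difference that was not tested. Lgals3, a galectin, fell from 19.9 ± 1.65 to 8.32 ± 0.284 CPM (n = 3, SD; log2 change -1.26), Cldn7, a tight junction claudin, fell by 1.06 on the log2 scale, and Ezr, the apical linker ezrin, by 0.84. Aqp3, a water channel of the trophectoderm, named after its value was seen, fell from 3.95 ± 0.756 to 1.18 ± 0.175 CPM (n = 3, SD; -1.72). Dab2 (1.66), Lrp2 (0.83) and Tspan8 (1.24) rose. Dab2, an endocytic adaptor, also stands in the list of primitive endoderm markers, and Lrp2, which encodes the receptor megalin, is known from visceral endoderm too. The keratins of the trophectoderm split, also named after their values were seen. Krt8 (-0.45) and Krt19 (-0.56) fell, Krt18 rose (0.34), and Krt7 did not pass (-0.53, adjusted p = 0.0638, edgeR). Krt8 and Krt18 have processed pseudogenes that can take some of their reads. Krt18 did not pass once expressing replicate 2 (edgeR adjusted p = 0.0523) or 3 (0.0798) or KO replicate 1 (0.0624) or 2 (0.0751) was left out. Krt7 passed without expressing replicate 2 (0.0298), with no filter (0.02), with the replicate block (0.0339) and with the GC trend removed (0.0351).

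Signals that keep trophoblast stem cells dividing numbered 4 higher and 4 lower of 18 tested, with a median log2 fold change of 0.11. The share called, 44.4%, was near the 40.0% of all tested genes. Fgf4, the ligand that the inner cell mass sends to the trophectoderm, fell from 119.4 ± 6.36 to 53.8 ± 2.201 CPM (n = 3, SD; log2 change -1.15), and Spry4, a feedback inhibitor that FGF signalling induces, fell by 1.35 on the log2 scale. Mapk3, which encodes ERK1, fell as well (-0.77). Bmp4, a signal from the epiblast, rose by 0.43, and Bmpr2, its receptor, by 0.42. Furin, a protease that matures such ligands, rose by 0.42. Bmpr2 did not pass without KO replicate 2 (edgeR adjusted p = 0.0791) or 3 (0.0689), and Furin without expressing replicate 2 (0.0692) or 3 (0.0852) and without KO replicate 1 (0.0778) or 2 (0.112). Fgfr2, the receptor of the trophectoderm, was picked with its value known and missed the threshold, at 17.8 ± 0.996 and 18.8 ± 0.727 CPM (SD, n = 3). It shares exon bases with Ctbp2 on its own strand, which makes its value uncertain. The number higher was 8 without expressing replicate 1, 9 after removal of the GC trend, and 2, 1 and 2 without KO replicate 1, 2 and 3.

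Genes of placental differentiation ranged from 0 counts to the 916.2 and 1205 CPM of Peg10. Of 25 in the table, 11 did not pass the filter on low counts, and the hormone, protease and fusion genes Prl3b1, Tpbpa, Ctsq and Synb had 0 counts in all 6 libraries. A count of 0 allows up to 3 counts, or 0.0581 to 0.0961 CPM per library, for counting error only. Of the 14 tested, 3 were higher and 6 lower, with a median log2 fold change of -0.12. That is 64.3% called, against 40.0% of all tested genes, a difference that was not tested. Flt1, a VEGF receptor that trophoblast and endothelium share, rose from 18.7 ± 0.384 to 53.3 ± 0.755 CPM (n = 3, SD; log2 change 1.51), and the imprinted genes Peg10 (0.40) and Igf2 (0.88) rose. Igf2 shares much of its exons with a second gene on its own strand, which makes its value uncertain. Rhox5 (-1.30), Plet1 (-1.94) and Plac8 (-1.10) fell. Plet1, a surface protein of trophoblast progenitors, went from 3.12 ± 0.182 to 0.821 ± 0.138 CPM (SD, n = 3).

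**Figure D4:**
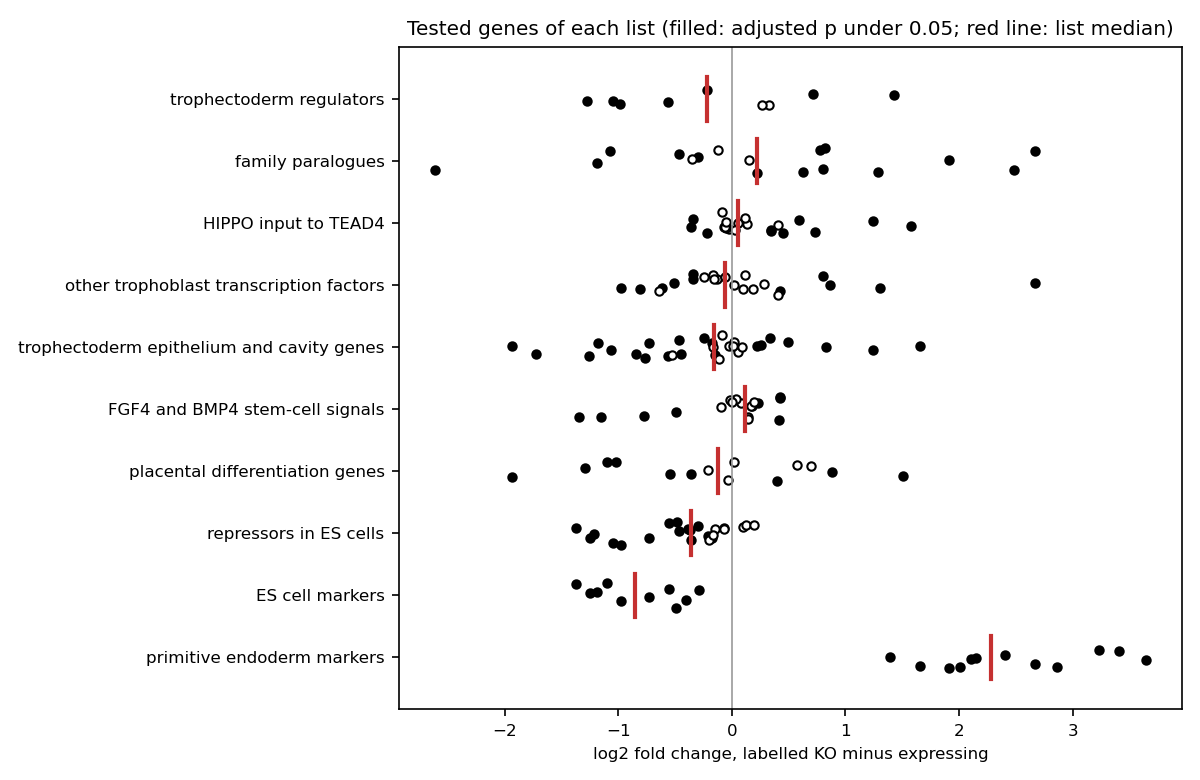
Each point is a tested gene of a list, placed by its log2 fold change (x axis, libraries labelled KO minus expressing). Filled points passed the adjusted threshold, open points did not, and red lines are list medians. The regulators and the surrounding lists lie on both sides of 0, whereas all ES cell markers lie below it and all primitive endoderm markers above it. In the list of repressors 15 genes passed as lower and 0 as higher, with a median of -0.36.

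Several regulators are also active in other lineages, and marker levels of those lineages are given beside them. For the counts of calls below, 40.0% of all tested genes were called (19.2% higher and 20.8% lower). All 12 primitive endoderm markers rose, and their summed level was 130.8 to 162.3 CPM in the expressing libraries and 598 to 618 CPM in those labelled KO. All 10 ES cell markers fell, although the groups overlapped for Utf1, which did not pass without expressing replicate 1 (edgeR adjusted p = 0.267) or 3 (0.0958), without KO replicate 1 (0.0866), 2 (0.106) or 3 (0.12), or with library totals (0.106). Streak and mesoderm markers, where Eomes and Hand1 also act, summed to 58.3 to 69.8 CPM and 40.5 to 45.3 CPM, with 2 higher and 2 lower of 7 tested (from 1 to 3 higher and from 1 to 2 lower when any library other than expressing replicate 2 was left out, and 1 and 1 with DESeq2). Mesp1 and Gsc had at most 7 counts in a library. Surface ectoderm and neural crest markers, where Tfap2a acts, summed to 40.8 to 48.4 CPM and 31.8 to 33.1 CPM, with 2 higher and 2 lower of 6 tested (2 higher and 1 lower without expressing replicate 1 or 3 or KO replicate 1 or 2), and the epidermal genes Krt5 and Trp63 had at most 15 counts in a library. Of 10 markers of placental trophoblast, 2 were tested and 0 passed in edgeR (0 with unadjusted p-values under 0.05, 0 with DESeq2), and the list summed to 1.496 to 2.43 CPM and 2.23 to 2.41 CPM. Without expressing replicate 1, 2 of these were higher and 1 lower, and without KO replicate 1, 0 were higher and 1 lower. Fibroblast markers summed to 1479 to 1726 CPM and 1557 to 2111 CPM, with 6 higher and 1 lower of 15. Leaving out expressing replicate 1, 2 or 3 gave 4 higher and 1 lower, and leaving out KO replicate 2 gave 4 higher and 4 lower. Without KO replicate 2, Col5a1 (edgeR adjusted p = 0.161) and Prrx1 (0.107) did not pass, Fn1 (0.00896) and Col6a1 (0.0374) were called lower, and Col1a2 turned from a log2 fold change of 0.15 to -0.32 (0.0464). The part of these lineages in the changes of the regulators was not tested.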

How the data were processed

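Poly(A) RNA was measured in 6 libraries, 3 in each group, with groups and replicate numbers taken from the sample titles. The deposited table holds whole-number counts per Ensembl gene, not normalized. The submitters' processing notes name the build mm10 and the tools HTSeq 0.6.1p1, STAR 2.5.3a, cutadapt 1.10 and bcl2fastq 2.20.0.422, and how each was set is not given in the sources used here. Per the labels' protocols the kit marks strand with dUTP. Symbols, positions and exon lengths come from GENCODE M21 of the same build, which named 55141 of 55401 identifiers, and unnamed ones held at most 0.00465% of a library's counts.

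Counts were tested in R 4.3.3 with edgeR 4.0.16 (filterByExpr with minimum count 10 and minimum total 15, TMM, robust glmQLFit, glmQLFTest), and p-values were adjusted over 17778 genes. Any adjusted p without another tool named is from edgeR. SE and 95% intervals come from the test statistic. CPM divide counts by TMM-scaled totals, and levels between genes are CPM per kilobase of merged exons. Alternatives were DESeq2 1.42.0, other scalings, filters, a replicate block, removal of a GC trend (spline with 5 degrees of freedom on the GC content of the longest transcript) and leaving out each library. The script was tested on simulated data. Same-group libraries varied beyond counting error (their chi-square divided by its degrees of freedom was between 3.52 and 38.4), so none was counted as a copy. Dishes may share a starting culture, so p-values measure the spread between dishes.

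The regulators and gene lists were chosen with earlier results of these data known. The text names all 9 regulators, Taf13, all family paralogues that were tested, Pou5f1, Nanog and Sox2, in each other list up to 3 called genes of smallest p in each direction, and the 3 genes most correlated with the called regulator of smallest p in each direction. Other genes named (Wwtr1, Yap1, Gcm1, Suz12, Trim28, Kdm1a, Setdb1, Hdac2, Ezh2, Cbx3, Eed, Dnmt1, Aqp3, the keratins, Fgfr2, Utf1 and genes at low counts or beside a regulator) were chosen after their values were seen. So were the fibroblast markers Col5a1, Prrx1, Fn1, Col6a1 and Col1a2, whose calls changed without KO replicate 2.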

Additional observations from a re-analysis of the deposited data

How the results depend on the processing

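Of the 9 regulators, 6 (Cdx2, Gata3, Tfap2c, Tead4, Hand1 and Elf3) kept their direction and call under all 14 alternatives, and no regulator turned direction under any. The Eomes log2 fold change ranged from -0.25 to -0.12 and its adjusted p from 0.0272 to 0.252, that of Gata2 from 0.22 to 0.48 (adjusted p from 0.00771 to 0.297), and that of Tfap2a from 0.24 to 0.36 (0.0292 to 0.22). Calls among the cell type markers were not part of the comparisons that follow, and changes in them are given with their levels. Counts of calls for all genes, the regulators and the other lists stayed within 1.5 times of the reported count in 235 of 252 comparisons. Those that did not were the lower family paralogues (3 against 5 with genes of at least 1 CPM in 3 libraries, and 3 to 5 when a library was left out), the lower HIPPO genes (5 against 3 with the GC trend removed, with or without the replicate block, and 2 to 5 when a library was left out), the higher FGF4 and BMP4 genes (9 against 4 with the GC trend removed, 8 with the replicate block added, and 1 to 8 when a library was left out) and the higher repressors (1 against 0 with library totals, with no filter, and with the GC trend removed with or without the replicate block, and 0 to 1 when a library was left out). The cause was not tested. With library totals 63.5% of all called genes were higher, against 48.1% as reported, and the regulators numbered 3 higher and 4 lower. Same-numbered dishes did not deviate together (r of 0.024, -0.034 and 0.042 over genes, for numbers 1 to 3), so the numbers are taken as names only. With the replicate block 2 regulators were higher and 4 lower. Depth limits Hand1 and Gata3 most. Genes under the count filter were left out as reported, and among those listed Hand2 passed with no filter.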

Other observations

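Transcripts beside the regulators were counted too. Within 5000 bases of a regulator lie 11 other annotated genes. The protein-coding gene 4930412O13Rik lies on the opposite strand from Gata3 and shares no exon with it. It was counted 4, 2 and 0 times in the expressing libraries and 8, 13 and 22 times in those labelled KO, without scaling for depth, and was not tested. Gm13256, which is antisense to Gata3 exons, had 0 counts in all 6 libraries, and 9230102O04Rik, which shares exon bases with Gata3 on the same strand, had at most 2. Gm47061, antisense to Tfap2a, rose (log2 fold change 0.93, SE 0.301, adjusted p = 0.0343, edgeR). Gm33460, antisense to Eomes, did not pass, at 0.576 and 0.777 CPM in the expressing libraries and those labelled KO (log2 fold change 0.43, SE 0.298, adjusted p = 0.277, edgeR). Rnpep, the same-strand neighbour of Elf3, did not pass either, at 34.1 and 34.7 CPM (0.03, SE 0.0913).

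Among 14223 genes of at least 1 CPM in 3 libraries, the 3 whose log2 CPM followed Gata3 most closely over the 6 libraries were 9030407P20Rik (Pearson r = 0.9996), the potassium channel gene Kcna1 (0.9989) and the ubiquitin ligase gene Trim7 (0.9988). Those closest to Tfap2c were Oas1a, an antiviral enzyme gene (0.9991), Usp26 (0.9991) and the ribosomal protein gene Rpl35a (0.9988). With 6 libraries in 2 groups such values mostly reflect the group difference. An r above 0.95 was reached by 1084 genes for Gata3 and 1353 for Tfap2c.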
